A study of Mus musculus with 8 samples.

Results

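The genes described here belong to the loop of Henle and the distal tubule, the parts of the nephron that follow the proximal tubule. They are Umod, Ptger3, Kcnj1, Bsnd, Wnk4, Egf, Trpm6 and Klhl3, and their probes were found through the RefSeq accession that the scanner files give for each probe. Of these 8 genes, 7 had a probe, out of 22911 named genes on the array, and 6 were bright enough to be tested, out of 16013 tested in all. Klhl3 had no probe with a matching accession and was not measured here, and Trpm6 was too dim to test.

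RNA was taken from whole embryonic mouse kidneys (day 14.5). Mutant kidneys had a conditional knockout of Mdm4 made by a Hoxb7Cre transgene, and wild-type kidneys were their comparison. Mdm4 encodes an inhibitor of p53. Each of 4 pairs held 1 mutant and 1 wild-type RNA, hybridised together on 2 Agilent 2-colour arrays with the dyes exchanged, which gives 8 arrays. The Hoxb7 promoter drives Cre in the ureteric bud and in the collecting ducts that grow from it, whereas the genes described here are expressed mainly by tubules that arise from the nephron progenitors, outside that lineage. The labels give no strain, no genotype of the wild-type embryos at the transgene and no number of embryos per RNA. The p-values therefore measure only the spread between these samples, which may be partly technical.

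The thick ascending limb of the loop of Henle takes up sodium, potassium and chloride without water, and the distal convoluted tubule behind it adjusts sodium, calcium and magnesium. Potassium returned to the lumen through the channel encoded by Kcnj1 keeps the uptake in the thick limb going, and chloride leaves on the blood side through ClC-K channels that need barttin, the product of Bsnd. In the embryo these segments arise late, from the distal and middle parts of the S-shaped body, so a kidney in mid-gestation holds few cells that have begun to express the transport genes. In bulk RNA, fewer cells of a type and less RNA per cell cannot be told apart.

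Upstream sequences are shown for 3 of these genes. Umod and Kcnj1 both had their highest ratio in pair 3, and Ptger3 had the highest mean ratio of the set. Each sequence is the 250 bases before the RefSeq start on the gene's strand, from the GRCm38.p6 annotation, at chr7:119479263-119479512 (minus strand) for Umod, at chr9:32393735-32393984 (plus strand) for Kcnj1 and at chr3:157566626-157566875 (plus strand) for Ptger3.
Umod: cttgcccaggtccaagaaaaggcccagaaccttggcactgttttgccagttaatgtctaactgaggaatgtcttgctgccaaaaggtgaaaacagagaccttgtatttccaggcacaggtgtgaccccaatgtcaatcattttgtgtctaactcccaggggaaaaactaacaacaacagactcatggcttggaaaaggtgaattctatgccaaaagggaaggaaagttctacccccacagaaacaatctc
Kcnj1: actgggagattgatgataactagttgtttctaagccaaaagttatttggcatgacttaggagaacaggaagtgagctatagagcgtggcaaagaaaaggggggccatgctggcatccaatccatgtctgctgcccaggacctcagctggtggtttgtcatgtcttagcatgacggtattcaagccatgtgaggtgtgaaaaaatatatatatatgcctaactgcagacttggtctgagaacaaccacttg
Ptger3: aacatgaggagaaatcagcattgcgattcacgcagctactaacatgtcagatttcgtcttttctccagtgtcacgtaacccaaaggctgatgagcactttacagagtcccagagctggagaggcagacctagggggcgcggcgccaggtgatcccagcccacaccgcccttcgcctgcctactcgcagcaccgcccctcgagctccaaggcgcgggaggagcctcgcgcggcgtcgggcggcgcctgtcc
In windows of 300 bases, which add 50 bases after the start, both strands were searched for AAGGTCA, the site of the oestrogen-related receptors, and for TATAAA, one form of the TATA box. Neither motif contains the other, and both were chosen after the values had been seen. Neither exact run of letters was found in these 3 windows or in those of Wnk4, Egf (2 starts), Klhl3 and Trpm6. Other forms of the TATA box were not searched, and the Kcnj1 sequence shown holds TATATAT. Of 32851 mouse promoter windows of the same length, 4.72% held AAGGTCA and 13.6% held TATAAA.

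The 8 RNAs were compared with each other before any gene. The mutant RNAs of pairs 2 and 3 were nearly identical. The median absolute deviation (MAD) of their log2 difference over 23443 probes was 0.0811 in Cy5 and 0.0763 in Cy3. Between 2 spots of one probe on one array it was 0.0683 to 0.0994, and in the other comparisons among the 28 possible pairs of RNAs it was 0.152 to 0.424. These RNAs were therefore counted as 1 mutant sample in every mean ± SD, which gives n = 3 mutant and n = 4 wild-type RNAs. For Ptger3, Bsnd, Wnk4 and some list counts, the ratios of all 4 pairs stand beside values with pairs 2 and 3 averaged into 1. All other SE and p-values treat the 4 ratios as independent, which those of pairs 2 and 3 are not, and may understate the spread. Over all genes tested, the smallest limma adjusted p was 0.075 with 4 pairs and 0.254 with these mutant RNAs counted once. Because these mutant RNAs were nearly identical, a difference between the ratios of pairs 2 and 3 goes with the wild-type RNAs of those pairs.

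**Figure D1:**
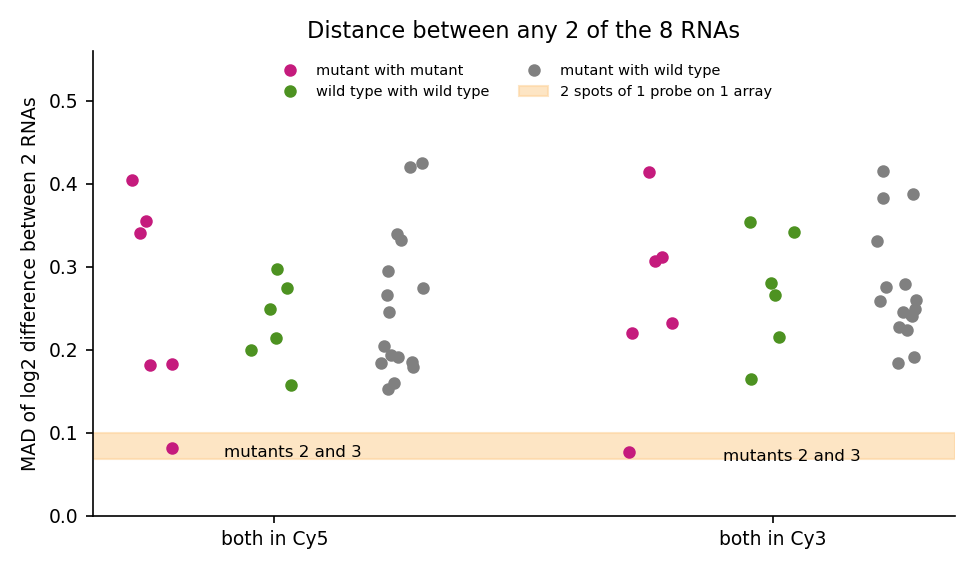
Distance between any 2 of the 8 RNAs, as the median absolute deviation of the log2 difference over 23443 probes (y axis), with both RNAs labelled in Cy5 (left) or Cy3 (right). Each point is 1 pair of RNAs and the band is the range between 2 spots of one probe on one array, 0.0683 to 0.0994. The mutant RNAs of pairs 2 and 3 lie inside the band, at 0.0811 and 0.0763, and every other point lies at 0.152 or above.

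Sex-linked transcripts differed within the pairs too. Y-linked Eif2s3y had levels of 10.59, 8.70, 8.56 and 10.86 in the mutant RNAs of pairs 1 to 4, against 6.68, 6.44, 10.58 and 6.76 in the wild-type RNAs. The mean log2 ratio of 3 Y-linked genes was 3.10, 1.53, -1.72 and 3.10 in pairs 1 to 4. Mdm4 itself was at a log2 ratio of -0.03, -0.06, -0.28 and -0.35 on its brightest probe (mean -0.18 ± 0.07, SE, limma adjusted p = 0.471), which does not check the labels, because most kidney cells lie outside the Cre lineage and it is unknown whether the probe lies in the exons that Cre removes. The arrays had 57.9% to 67.1% of spots well above background in a channel, and their number limits the precision.

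In these kidneys none of the 6 tested loop and distal tubule genes passed limma's test of mutant against wild type (adjusted p from 0.406 to 0.989). Ptger3, the EP3 receptor for prostaglandin E2, was the one tested gene of the set with a ratio above 0 in all 4 pairs on its brightest probe, at a mean log2 ratio of 0.41 ± 0.12 (SE), and its second probe was below 0 in pair 3. As means of both dyes, Umod, Kcnj1 and Bsnd, genes of the thick ascending limb, were below 0 in pairs 1 and 2 and at their highest ratio in pair 3. For Umod and Kcnj1 the dye-swapped arrays of pair 1 differed in sign. Wnk4 and Egf had means of -0.004 ± 0.07 and -0.03 ± 0.08. Over all 16013 genes limma called 0% at an adjusted p of 0.05. At an unadjusted p under 0.05 it counted 1 of the 6 members as higher and 0 as lower, beside 7.01% and 3.6% of all genes (10.6% in all). With the mutant RNAs of pairs 2 and 3 counted once these were again 1 and 0, beside 5.57% and 3.13%, but without pair 4 they were 0 and 0. None of the 6 was called either with median centring (0.262% of all genes) or with all 8 arrays and the pair as a replicate block (0.244%). In all 4 pairs 1 of the 6 was higher and 0 were lower, beside 12.1% and 7.84% of all genes.

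Levels are log2 intensities, averaged over both dyes after the arrays were scaled to each other, and a ratio is the log2 of mutant over wild type. Levels of different genes cannot be set against each other, because each probe has its own brightness. As a description of the signal, the probes of Umod and Kcnj1 were brighter than 48.2% and 48.0% of all probes, those of Egf and Bsnd than 54.8% and 57.8%, the Ptger3 probes than 56.3% and 44.1%, the Wnk4 probes than 77.4% and 70.5%, and the Trpm6 probe than 28.4%.

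Umod encodes uromodulin, the protein that the thick ascending limb secretes into the urine in the largest amount. Its levels were 7.36, 7.29, 7.28 and 7.17 in the mutant RNAs of pairs 1 to 4, against 7.48, 7.42, 6.92 and 7.07 in the wild-type RNAs. The mutant levels lay inside the wild-type range, whose low end was pair 3. The means were 7.27 ± 0.10 in mutant RNAs (SD, n = 3) and 7.22 ± 0.27 in wild-type RNAs (SD, n = 4). Its ratios of -0.11, -0.13, 0.36 and 0.10 gave a mean of 0.05 ± 0.09 (SE, limma adjusted p = 0.851). Leaving out pair 3 turned the mean to -0.05. In pair 1 Umod was at 0.04 where the mutant RNA carried Cy5 and -0.26 where it carried Cy3.

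Kcnj1 encodes ROMK, the potassium channel of the thick ascending limb and of the ducts beyond it. Its levels were 7.71, 7.34, 7.31 and 7.02 in the mutant RNAs, against 7.80, 7.61, 6.52 and 6.66 in the wild-type RNAs. Wild-type pairs 3 and 4 lay below every mutant RNA, and wild-type pair 1 lay above them all. The probe was well above background in 8 of 8 mutant channels and in 4 of 8 wild-type channels, those of pairs 1 and 2, and it entered the test through the mutant channels. Its ratios in pairs 3 and 4 thus rest on wild-type signals not well above background. The means were 7.35 ± 0.35 in mutant RNAs (SD, n = 3) and 7.15 ± 0.65 in wild-type RNAs (SD, n = 4). Ratios of -0.08, -0.27, 0.79 and 0.36 gave a mean of 0.20 ± 0.17 (SE, limma adjusted p = 0.681), which was 0.004 without pair 3. With Agilent's own processed signals it was 0.92 (limma adjusted p = 0.592). The Kcnj1 ratio averaged 0.03 where the mutant RNA carried Cy5 and 0.37 where it carried Cy3. In pair 1 these were -0.21 and 0.05, and in pair 2 -0.51 and -0.03.

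Bsnd, the gene of the ClC-K subunit barttin, had levels of 8.14, 8.07, 8.06 and 7.53 in the mutant RNAs, against 8.49, 8.31, 7.28 and 7.55 in the wild-type RNAs. All mutant levels again fell inside the wild-type range. The means were 7.91 ± 0.34 in mutant RNAs (SD, n = 3) and 7.91 ± 0.58 in wild-type RNAs (SD, n = 4). Its ratios were -0.35, -0.24, 0.78 and -0.02, with a mean of 0.04 ± 0.19 (SE, limma adjusted p = 0.946). Without pair 3 the mean was -0.20, and with the mutant RNAs of pairs 2 and 3 counted once it was -0.03.

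For Umod and Bsnd the mutant RNAs ran from highest to lowest in the order of pairs 1, 2, 3 and 4, and the wild-type RNAs in the order of pairs 1, 2, 4 and 3. Kcnj1 had the same order over the mutant RNAs, and its wild-type RNAs of pairs 3 and 4, not well above background, have no order between them. The 3 genes share these RNAs and arrays, so what their orders have in common is 1 observation and not 3. The mutant RNAs of pairs 2 and 3 differed by 0.011 for Umod, 0.034 for Kcnj1 and 0.0049 for Bsnd, so their order has no weight. Slc12a1, which encodes the sodium-potassium-chloride cotransporter NKCC2 of the thick limb, had levels of 8.28, 8.03, 7.99 and 7.88 in the mutant RNAs, against 8.42, 8.03, 7.03 and 7.08 in the wild-type RNAs. Its wild-type RNAs of pairs 3 and 4 lay below all mutant RNAs, as for Kcnj1. Slc12a1 was added after its values had been seen. It was well above background in all 16 channels, so that a transcript that marks the thick limb was measured in every RNA, and its mean ratio was 0.40 ± 0.20 (SE, limma adjusted p = 0.527), or 0.22 without pair 3.

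**Figure D2:**
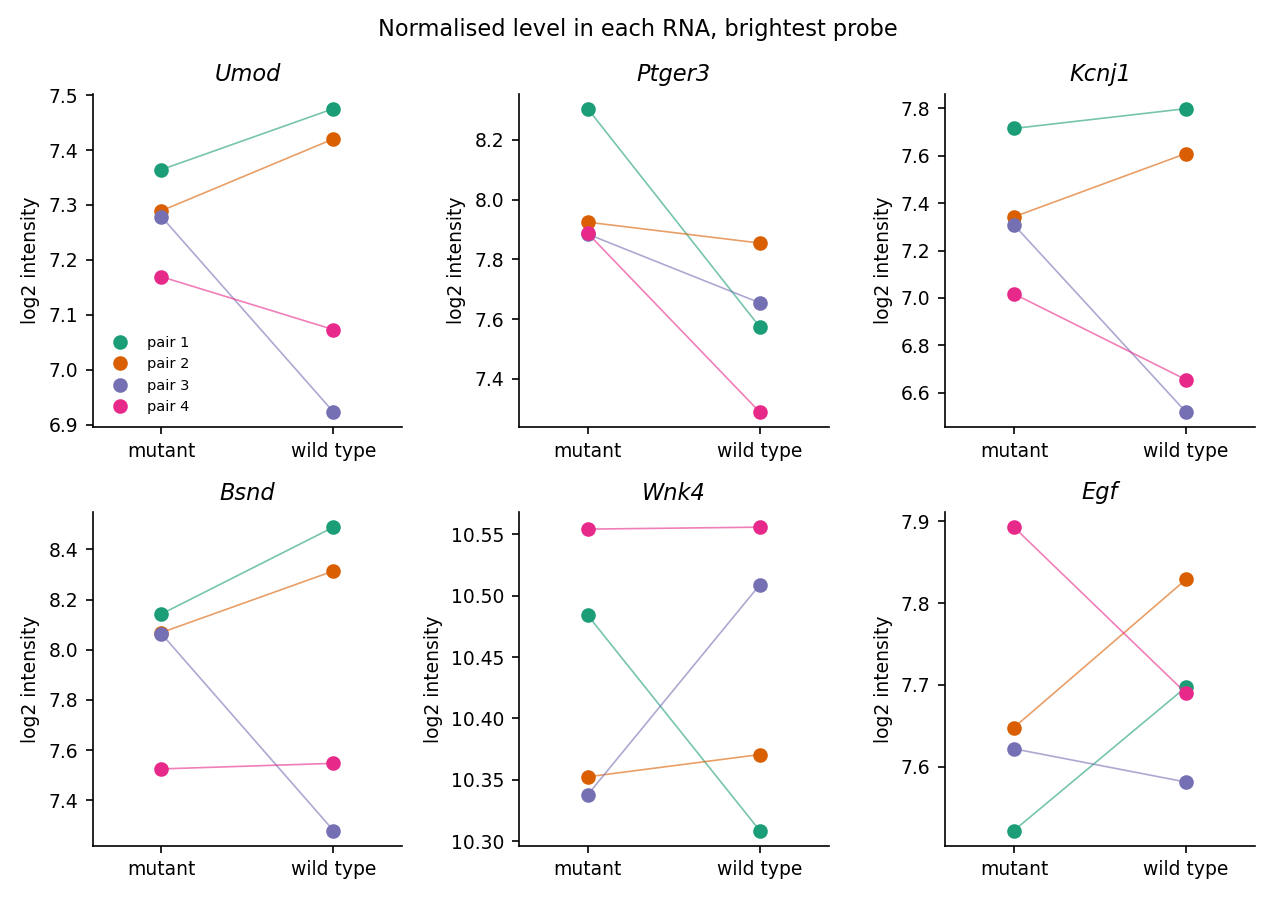
Log2 intensity of the brightest probe of each of the 6 tested genes (y axis, own scale per panel) in the mutant RNAs (left) and wild-type RNAs (right). Each point is 1 RNA, coloured by pair, and a line joins the RNAs of a pair. Mutant Ptger3 levels, 7.88 to 8.30, lie above the wild-type levels of 7.29 to 7.85, and for Umod and Bsnd the mutant points lie inside the wild-type range.

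Ptger3 encodes a receptor through which prostaglandin E2 lowers cyclic AMP in the thick ascending limb and the collecting duct. On its brighter probe its levels were 8.30, 7.92, 7.88 and 7.89 in the mutant RNAs, against 7.57, 7.85, 7.65 and 7.29 in the wild-type RNAs. The groups did not overlap, although the lowest mutant RNA and the highest wild-type RNA were only 0.03 apart. Across the array, 4% of genes had all mutant levels above all wild-type levels, and 1.94% had them all below. The means were 8.03 ± 0.24 in mutant RNAs (SD, n = 3) and 7.59 ± 0.23 in wild-type RNAs (SD, n = 4). Ratios of 0.73, 0.07, 0.23 and 0.60 gave a mean of 0.41 ± 0.12 (SE, limma unadjusted p = 0.013, adjusted p = 0.406). In all 4 pairs 12.1% of all genes were higher. The ratio of Ptger3 was above 0 on 8 of 8 arrays, averaging 0.35 where the mutant RNA carried Cy5 and 0.46 where it carried Cy3. With the mutant RNAs of pairs 2 and 3 counted once it was 0.49 ± 0.13 (SE, limma adjusted p = 0.498).

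The dimmer Ptger3 probe did not show this. Its levels were 7.40, 7.02, 6.96 and 6.87 in the mutant RNAs, against 6.85 to 7.18 in the wild-type RNAs, and the groups overlapped. Its ratios were 0.22, 0.03, -0.12 and 0.02, with a mean of 0.04 ± 0.07 (SE, limma adjusted p = 0.887 over all kept probes), and 4 of 8 arrays were above 0. The median of both probes gave 0.22 (limma adjusted p = 0.459). The sources used here do not give which Ptger3 transcripts each probe reads.

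The genes whose log2 ratios over the 8 arrays were most like those of Ptger3, by Pearson's r among the tested genes, were Bloc1s2 (r = 0.946), Cdk14 (r = 0.943), Wfdc18 (r = 0.926), Cd300c2 (r = 0.923) and Stmn2 (r = 0.922). The arrays are 4 dye-swapped sets of shared RNAs, so these r describe 4 pairs and not 8 samples. Their mean log2 ratios were -0.03, 0.07, 0.15, 0.27 and 0.61, so likeness in pattern over the arrays came with means on either side of 0.

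Wnk4 encodes a kinase that controls the sodium-chloride cotransporter of the distal convoluted tubule and is itself degraded through the adaptor that Klhl3 encodes. Its brighter probe had levels of 10.48, 10.35, 10.34 and 10.55 in the mutant RNAs, against 10.31, 10.37, 10.51 and 10.56 in the wild-type RNAs. The groups overlapped, and the means were 10.46 ± 0.11 in mutant RNAs (SD, n = 3) and 10.44 ± 0.12 in wild-type RNAs (SD, n = 4). Ratios of 0.18, -0.02, -0.17 and -0.0016 gave a mean of -0.004 ± 0.07 (SE, limma adjusted p = 0.989). The dimmer probe was at 0.03, with 0.28 where the mutant RNA carried Cy5 and -0.23 where it carried Cy3, so its orientations differed by more than its mean.

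Egf encodes the precursor of epidermal growth factor, which the distal convoluted tubule and the thick limb of the adult mouse make in large amounts. Its levels were 7.52, 7.65, 7.62 and 7.89 in the mutant RNAs, against 7.70, 7.83, 7.58 and 7.69 in the wild-type RNAs. The groups overlapped, with means of 7.68 ± 0.19 in mutant RNAs (SD, n = 3) and 7.70 ± 0.10 in wild-type RNAs (SD, n = 4). Its ratios of -0.18, -0.18, 0.04 and 0.20 gave a mean of -0.03 ± 0.08 (SE, limma adjusted p = 0.915).

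Trpm6 encodes the magnesium channel of the distal convoluted tubule. Its probe was well above background in 2 of 8 mutant channels and 0 of 8 wild-type channels. Its levels were 6.67, 6.62, 6.66 and 6.63 in the mutant RNAs, against 6.57, 6.59, 6.62 and 6.55 in the wild-type RNAs. Most of these values are signals not well above background in either genotype, so no fold change is given. The other genes of the distal convoluted tubule named here, chosen after their values had been seen, differed in signal. Slc12a3, which encodes the sodium-chloride cotransporter that marks this segment, was well above background in 0 of 8 mutant and 0 of 8 wild-type channels, and the calcium channel gene Trpv5 in 1 of 8 and 2 of 8. Pvalb, which encodes the calcium-binding protein parvalbumin, was well above background in 8 of 8 mutant and 8 of 8 wild-type channels, with a mean ratio of -0.09 ± 0.06 (SE, limma adjusted p = 0.586).

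**Figure D3:**
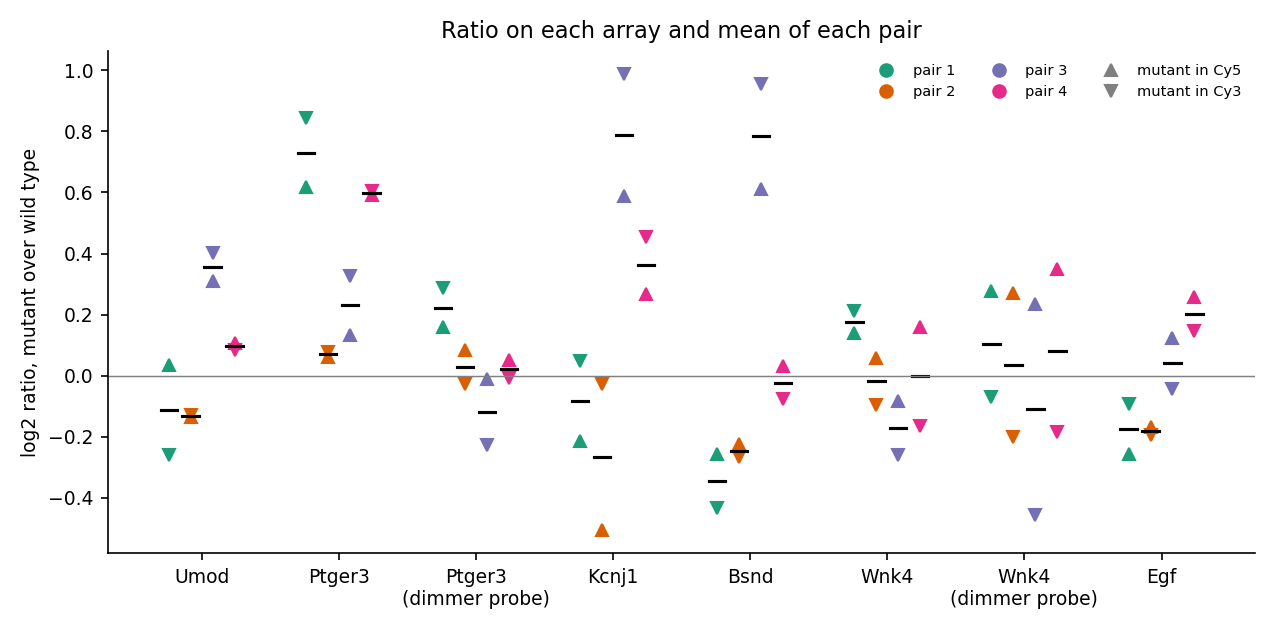
Log2 ratio of mutant over wild type (y axis) for each kept probe of the loop and distal tubule genes. Triangles are single arrays, pointing up where the mutant RNA carried Cy5 and down where it carried Cy3, colours are pairs, and each black bar is the mean of a pair. The brighter Ptger3 probe is above 0 on all 8 arrays, whereas the bars of Umod, Kcnj1 and Bsnd lie below 0 in pairs 1 and 2 and are highest in pair 3.

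Over the 6 tested genes the median log2 ratio was 0.05, beside 0.01 over all genes tested, with -0.10, -0.16, 0.29 and 0.15 in pairs 1 to 4. The mean was above 0 for 4 of 6 genes, beside 53.9% of all genes. Without pair 3 the median was -0.02, and with the Y-linked ratio as a covariate it was 0.22. The other transport genes of these segments were also below 0 in pairs 1 and 2 and highest in pair 3, with medians of -0.05, -0.17, 0.35 and 0.08. The same held for 16 genes of distal nephron patterning (-0.20, -0.09, 0.23 and 0.16) and 12 proximal tubule markers (-0.02, -0.20, 0.33 and 0.20). All these lists share the arrays. Proximal tubule markers had mean levels of 8.36 to 8.66 in mutant RNAs, against 7.98 to 8.64 in wild-type RNAs. The part of the other nephron segments in the members' values was not tested.

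Of 22 other transport genes of the ascending limb and distal tubule, 18 were tested, 1 was higher and 1 lower at an unadjusted p under 0.05, and limma called 0 at an adjusted p of 0.05. Beside these stand 7.01% and 3.6% of all genes. The counts at the unadjusted p were 2 higher and 0 lower without pair 1, 2 and 1 without pair 2, 0 and 2 without pair 3, and 0 and 0 without pair 4. Calb1, which encodes a calcium-binding protein of the distal convoluted tubule and of the ureteric epithelium, was at -1.26, -0.54, 0.09 and -1.04 (mean -0.69 ± 0.22, SE, limma adjusted p = 0.424). Its levels were 13.46, 14.19, 14.14 and 13.63 in the mutant RNAs, against 14.73, 14.73, 14.04 and 14.67 in the wild-type RNAs. The wild-type RNAs of pairs 1, 2 and 4 lay above every mutant RNA. Markers of the ureteric trunk and collecting duct, 16 in all, had a median ratio of -0.37 (-0.20 without pair 1, and -0.09 with the Y-linked ratio as a covariate) and mean levels of 9.59 to 10.06 in mutant RNAs, against 9.88 to 10.49 in wild-type RNAs. Their part in the Calb1 value was not tested. Cldn16 and Cldn19, which encode the tight junction proteins that let magnesium and calcium pass in the thick limb, were at 0.23 ± 0.08 and 0.16 ± 0.07, and Slc8a1, a sodium-calcium exchanger gene, at -0.13 ± 0.06 (limma adjusted p from 0.425 to 0.518). Cldn16 was the 1 gene counted as higher, and its probe, well above background in 8 of 8 mutant and 5 of 8 wild-type channels, entered the test through the mutant channels. Without pair 3 Cldn16 was at 0.16 and Cldn19 at 0.10, and with Agilent's processed signals they were at 0.70 and 0.34.

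Among genes of the WNK kinase pathway, 13 of 15 were tested, with a median of -0.002. At an unadjusted p under 0.05, 1 was higher and 3 lower, beside 7.01% and 3.6% of all genes. Leaving out any 1 pair left 0 higher and 1 or 2 lower. Wnk1, which encodes the widely expressed relative of Wnk4, was at 0.15 ± 0.06 (SE, limma adjusted p = 0.451), or 0.02 with the median of its probes. Oxsr1, which encodes a kinase that WNK kinases activate, was at -0.16 ± 0.06 and below 0 on all 8 arrays (limma adjusted p = 0.442). In all 4 pairs 7.84% of all genes were lower. Wnk2 was at -0.24 ± 0.07, and Hsd11b2, which encodes the enzyme that keeps glucocorticoids from the mineralocorticoid receptor, at -0.26 ± 0.10, with -0.62 in pair 4 and -0.14 without that pair. With the mutant RNAs of pairs 2 and 3 counted once, the pathway had 0 higher and 1 lower gene at this p, beside 5.57% and 3.13% of all genes. Cul3, the scaffold of the ubiquitin ligase that Klhl3 serves, was at 0.01 ± 0.06. Its values were known when it was added here.

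Prostaglandin synthesis and receptor genes other than Ptger3 had a median ratio of 0.19. Of 13 genes 5 were higher and 0 lower at an unadjusted p under 0.05, beside 7.01% and 3.6% of all genes. In all 4 pairs 6 were higher, beside 12.1%, and limma called 0 at an adjusted p of 0.05. The 5 higher genes became 3 without pair 1. Ptger2, which encodes the EP2 receptor, had levels of 7.08, 7.11, 7.03 and 6.93 in the mutant RNAs, against 6.86, 6.79, 6.74 and 6.58 in the wild-type RNAs. The groups did not overlap, although 6.93 and 6.86 lie close together, and 4% of all genes had all mutant levels above all wild-type levels. Ptger2 had a mean ratio of 0.30 ± 0.05 (SE, limma adjusted p = 0.304), or 0.80 with Agilent's processed signals. It was well above background in 8 of 8 mutant and 6 of 8 wild-type channels. Hpgd, which encodes the enzyme that breaks prostaglandins down, was at 0.34 ± 0.07 (SE, limma adjusted p = 0.304), with levels of 9.70, 9.68, 9.65 and 9.43 in the mutant RNAs, against 9.54, 9.32, 9.18 and 9.08 in the wild-type RNAs. Both genes were above 0 on 8 of 8 arrays, as was Ptgir, the prostacyclin receptor gene (0.31 ± 0.10, or 0.19 without pair 4). These arrays are dye swaps of 4 pairs, and 12.1% of all genes were higher in all 4.

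Ptgs2, which encodes the inducible cyclooxygenase COX-2, was at 0.03, 0.22, 0.34 and 0.99 in pairs 1 to 4 (mean 0.40 ± 0.15, SE, limma adjusted p = 0.453), and at 0.20 without pair 4. Its probe was well above background in 8 of 8 mutant and 5 of 8 wild-type channels, so that this gene, 1 of the 5 counted as higher, entered the test through the mutant channels. Ptger4, which encodes the EP4 receptor and was added with its values known, was at 0.34 ± 0.14, and at 0.16 without pair 4, where its ratio was 0.88. Markers of other cell types had ratios above 0 as well. Of 9 macrophage markers 9 had a mean above 0, beside 53.9% of all genes. Their median ratios were 0.46, 0.06, 0.07 and 0.38 in pairs 1 to 4. Mean levels of this list were 9.90 to 10.45 in mutant RNAs, against 9.67 to 9.98 in wild-type RNAs. Of 10 renal stroma markers 10 had a mean above 0, beside the same 53.9%, with median ratios of 0.36, 0.27, 0.14 and 0.40. Mean levels of the stroma list were 13.16 to 13.74 in mutant RNAs, against 12.86 to 13.32 in wild-type RNAs. The part of macrophage and stroma cells in the prostaglandin and Ptger3 values was not tested.

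**Figure D4:**
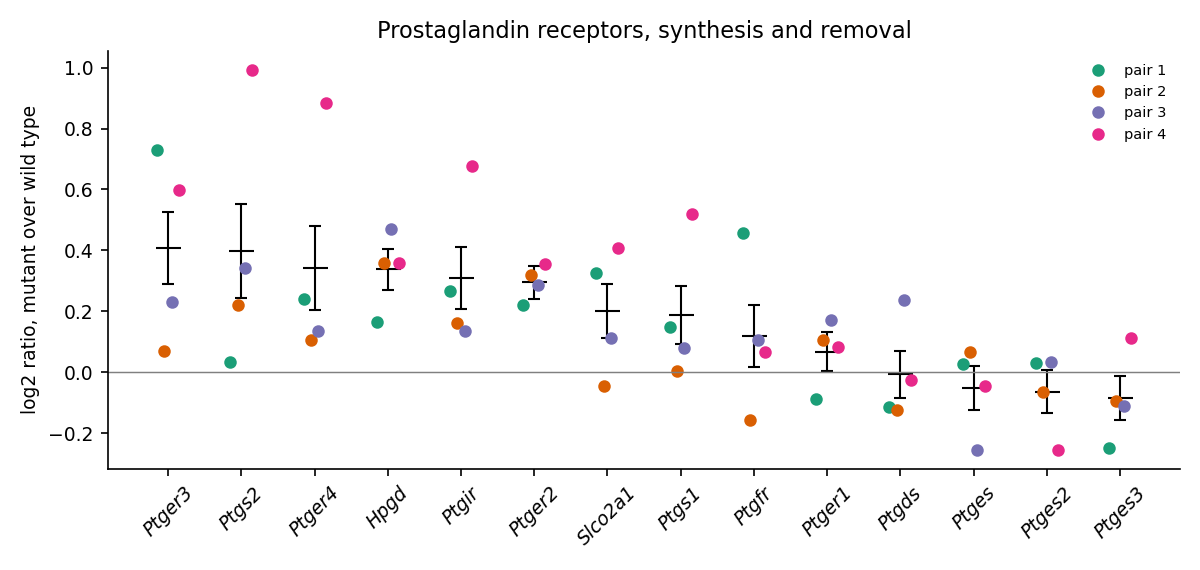
Log2 ratio of mutant over wild type for Ptger3 and the prostaglandin synthesis and receptor genes, with 1 point per pair and the mean with its standard error. Ptger3, Ptger2, Hpgd, Ptgir, Ptgs2, Ptger4 and Ptgs1 are above 0 in every pair. Ptger2, Hpgd and Ptgir have means of 0.30 to 0.34, and Ptgs2 and Ptger4 have their highest ratio in pair 4.

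For Egf, ligands and receptors of its family were listed as well. Of 10 genes 6 were tested, and 3 were higher and 0 lower at an unadjusted p under 0.05, beside 7.01% and 3.6% of all genes. With the mutant RNAs of pairs 2 and 3 counted once, 2 were higher and 0 lower, beside 5.57% and 3.13%. The median was 0.18, with 0.10, 0.16, 0.16 and 0.31 in pairs 1 to 4. Nrg1, which encodes the ligand neuregulin, was at 0.30 ± 0.06 and above 0 on 8 of 8 arrays (SE, limma adjusted p = 0.304). In all 4 pairs 12.1% of all genes were higher. Egfr, which encodes the EGF receptor, was at 0.52 ± 0.11 (SE, limma adjusted p = 0.346), but at 0.98 where the mutant RNA carried Cy5 and 0.07 where it carried Cy3. Btc, the ligand gene for betacellulin, was at 0.25 ± 0.08 and Hbegf, another ligand gene, at 0.10 ± 0.07. Without pair 4 Hbegf was at 0.04, and with Agilent's processed signals Btc was at 0.53. The receptor genes Erbb3 and Erbb4 and the ligand genes Areg and Ereg were too dim to test.

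Relatives and partners of the set gave 5 tested genes of 7. Clcn5, a chloride-proton exchanger gene, was at -0.18 ± 0.05 and below 0 on all 8 arrays (SE, limma adjusted p = 0.406). In all 4 pairs 7.84% of all genes were lower. Klhl4, a relative of Klhl3, was at 0.21 ± 0.08, Hpn, which encodes the protease hepsin that releases uromodulin from the cell surface, at -0.25 ± 0.11, and the potassium channel gene Kcnj15 at 0.08 ± 0.07. With 1 pair left out, Klhl4 ran from 0.12 (without pair 4) to 0.26, Hpn from -0.38 (without pair 3) to -0.16 (without pair 2) and Kcnj15 from 0.04 (without pair 3) to 0.14 (without pair 2). Hpn was at -0.46 where the mutant RNA carried Cy5 and at -0.04 where it carried Cy3. Among 16 patterning genes of the distal nephron 0 were higher and 2 lower at an unadjusted p under 0.05, beside 7.01% and 3.6% of all genes. The counts were 3 higher and 1 lower without pair 1 and 0 higher and 1 lower without pair 4. The lower genes of the 4 pairs were Lhx1 (-0.26 ± 0.08) and Tfap2a (-0.47 ± 0.14), both transcription factor genes, which limma left at adjusted p of 0.406 and 0.422. In pairs 1 to 4 Lhx1 was at -0.44, -0.16, -0.09 and -0.36, and Tfap2a at -0.89, -0.37, -0.001 and -0.63. Markers of the ureteric trunk and collecting duct had medians of -0.71, -0.34, 0.07 and -0.47, and their part in these values was not tested. Lhx1 was at -0.44 where the mutant RNA carried Cy5 and -0.08 where it carried Cy3. Irx2 was at 0.29 ± 0.14, or 0.15 without pair 3, and Mecom at -0.14 ± 0.07.

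**Figure D5:**
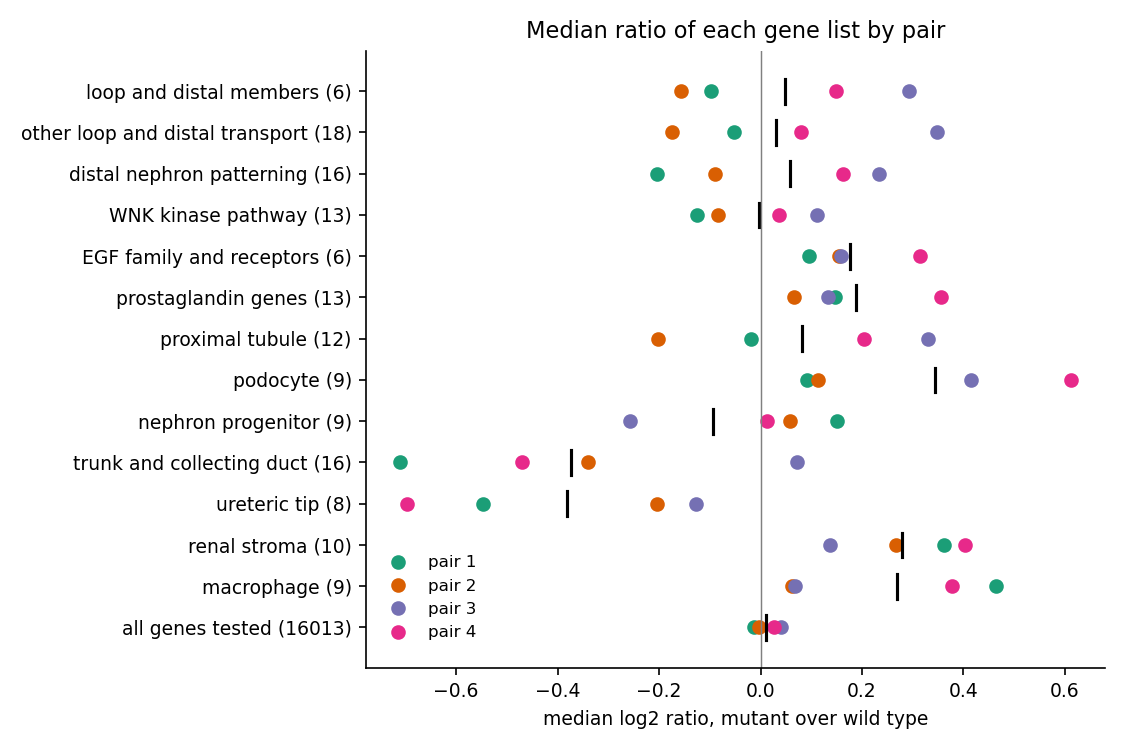
Median log2 ratio of mutant over wild type of each gene list by pair (points) and the median of the genes' mean ratios (black bar), with the number of genes tested in brackets. The loop and distal members, other transport, patterning and proximal tubule lists have their highest median in pair 3, whereas stroma and macrophage lists are above 0 in all 4 pairs and all genes tested lie near 0.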

How the data were processed

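Mutant and wild-type RNAs of 4 pairs were labelled with Cy5 and Cy3, and each pair was hybridised on 2 arrays with the dyes exchanged. The scanner files, as deposited, hold for each of 62976 spots the median intensity and local background intensity in both channels, the processed intensities and flags, written by Agilent Feature Extraction 10.7.3.1 per the file headers (8.5.1.1 per the submitters' processing notes). A deposited table of the whole series holds, per the file headers, log10 values of Cy5 divided by Cy3, and it differed from the scanner ratios by at most 0.005. Scale, centring (median 0 per column) and direction of that table were thus known, and it was not turned for the dye swap. For the authors' processing, the sources used here name no genome build.

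Intensities were corrected with normexp (offset 50) and normalised by loess in limma 3.58.1 (R 4.3.3). Control spots (3671) and outlier spots (95 to 156 per array) had weight 0 and were left out, 0 spots were saturated, and spots of a probe were averaged. Ratios were turned to mutant over wild type, and both arrays of a pair were averaged. Levels were scaled between arrays with Aquantile. Probes had to be well above background in 6 or more of the 8 channels of either genotype, which kept 34594 of 56605. Accessions named 32994 probes (58.3%) through the GRCm38.p6 RefSeq table, and each gene was read from its brightest kept probe (5916 genes had several). The ratios were tested against 0 with lmFit and eBayes, two-sided, with Benjamini-Hochberg adjustment over 16013 genes and a threshold of 0.05. These steps were checked on simulated data. All arrays lay on 1 slide, so no slide could be used as a block.

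The replicate number marks RNAs that share arrays, so each pair gives 1 ratio. Deviations of the dye-swapped arrays of a pair correlated at 0.660, 0.628, 0.862 and 0.770. Members, gene lists, tests and motifs were chosen with earlier results of these data known. Besides the members, the rule named up to 4 genes of each pathway list with the smallest p, and for Ptger3, the member with the smallest p, the 5 genes with the highest Pearson's r. The lists of ureteric tip, nephron progenitor, endothelium, podocyte and p53 target genes are described in the closing section.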

Additional observations from a re-analysis of the deposited data

Results flagged for a closer look

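Among 44 sets of 4 pair ratios or 4 wild-type levels examined, a single value stood apart from the other 3 in 3 sets, by Dixon's criterion at 95%. Chance marks about 1 in 20 sets of independent values. The ratios of pairs 2 and 3 share a nearly identical mutant RNA, and genes were named partly by p-value, so this rate is only a guide. The ratio of Ptger4 was 0.88 in pair 4, against 0.11 to 0.24 in the other pairs. The ratio of Hsd11b2 was -0.62 in pair 4, against -0.14 to -0.12 in the others. The ratio of Wnk1 was 0.23 in pair 2, against 0.11 to 0.13 in the others. Mutant levels were not examined in this way, because there were 3 mutant RNAs after the nearly identical ones were counted once. None of the members' own ratios or wild-type levels stood apart by this criterion.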

How the results depend on the processing

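Across the array, limma called 42 genes, all higher, when arrays were centred on their median rather than by loess. It called 39, of which 38 were higher, in the fit of all 8 arrays with a dye term and the pairing as a replicate block. In the other settings it called 0, and 0 members were called in every setting. Under median centring the median over all genes was 0.14, and Egfr passed (0.68, adjusted p = 0.0421). The replicate block changed no other call among the genes named. Signs turned for members close to 0. Wnk4 was at 0.022 with Agilent's processed signals and with the deposited table, 0.15 with median centring (near that setting's median), 0.012 with the median of its probes, 0.069 on arrays with Cy5-labelled mutant RNA and 0.026 with the mutant RNAs of pairs 2 and 3 counted once. Egf was at 0.0071 with processed signals and with the deposited table, and Bsnd at -0.033 with those RNAs counted once. With 1 pair left out, Umod ran from -0.048 to 0.11, Bsnd from -0.20 to 0.17, Wnk4 from -0.064 to 0.052 and Egf from -0.11 to 0.023. Slc8a1 was at 0.084 and Kcnj15 at -0.0046 on arrays with Cy5-labelled mutant RNA. Ptger3 kept its sign in every setting, from 0.22 (median of its probes) to 0.74 (deposited table), with adjusted p from 0.118 to 0.762. No setting read its dimmer probe alone, which was at 0.04, with -0.12 in pair 3. The causes were not tested. Kcnj1 has no value where all 16 channels had to be above background. Counting the RNAs once was chosen after seeing the data.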

Other observations

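Lists of other kidney cell types, described here by counts and medians, were read from the same arrays as the loop and distal tubule genes. Of all genes, 53.9% had a mean ratio above 0, and 7.01% were higher and 3.6% lower at an unadjusted p under 0.05. Of single genes, 4% had all mutant levels above all wild-type levels, and 1.94% had them all below. All 9 podocyte markers had a mean ratio above 0 (median 0.34, 5 higher and 0 lower at an unadjusted p under 0.05), with mean levels of 10.08 to 10.50 in mutant RNAs, against 9.49 to 10.29 in wild-type RNAs. The 5 became 2 without pair 3 and 2 without pair 4. All 8 ureteric tip markers had a mean below 0 (median -0.38, 0 higher and 5 lower). Of these, 6 were below 0 in all 4 pairs, beside 7.84% of all genes. Ret was at 1.09 in pair 2, and Sox9 was at -0.46, 0.04, 0.29 and 0.04 in pairs 1 to 4. Mean levels of the tip list, 10.76 to 11.23 in mutant RNAs, lay below the 11.32 to 11.56 of wild-type RNAs. Of 16 trunk and collecting duct markers 0 were higher and 7 lower, and the 7 became 2 without pair 1, 4 without pair 2, 10 without pair 3 and 3 without pair 4. Nephron progenitor markers had a median of -0.09 (1 higher, 1 lower) and endothelium markers one of 0.06 (0 higher, 0 lower). The 15 p53 targets had a median of 0.63 with 10 higher and 0 lower, and mean levels of 11.20 to 11.49 in mutant RNAs, against 10.67 to 10.80 in wild-type RNAs. No gene of these lists passed limma's test at an adjusted p of 0.05.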
